A study of Mus musculus with 17 samples.

Results

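The genes described here encode proteins that bind AU-rich elements in messenger RNA or that bring deadenylases to a transcript. They are Zfp36, Zfp36l1, Zfp36l2, Elavl1, Hnrnpd, Khsrp, Tob1, Tob2 and Btg1, 9 of the 55487 genes in the count table, chosen by name and matched to their Ensembl identifiers. All 9 passed the filter on low counts and are among the 13230 genes tested. RNA sequencing was done on ventricular cardiomyocytes isolated from mice at postnatal day 60. The 6 groups were MBNL1 loss-of-function (KO) cells at 0, 4 and 8 h and control (WT) cells at 0, 4 and 8 h, all plated on laminin and given actinomycin D at 2 µg/mL, an intercalating agent that blocks transcription. Each group had 3 libraries except WT at 4 h, which had 2. MBNL1, a muscleblind protein, binds RNA and acts on its splicing and stability, and the study asked which transcripts differ in stability between the genotypes. The labels name neither the allele nor any Cre driver, and no cells were sampled at 4 or 8 h without actinomycin D.

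AU-rich elements are runs of A and U in the 3′ UTR that mark a transcript for fast turnover. ZFP36 (tristetraprolin) and its paralogs ZFP36L1 and ZFP36L2 bind the heptamer UAUUUAU through a pair of zinc fingers and recruit the CCR4-NOT deadenylase, which shortens the poly(A) tail. HNRNPD (AUF1) and KHSRP (KSRP) also bind such elements and are mostly linked to decay, while ELAVL1 (HuR) binds U-rich and AU-rich sequence and is best known for protecting its targets. TOB1, TOB2 and BTG1 belong to the BTG/TOB family, whose shared domain contacts the CNOT7 and CNOT8 subunits of the same deadenylase. Several of these messengers are themselves short-lived, and Zfp36 is an immediate early gene that limits its own transcript.

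Some members carry the heptamer in their own 3′ UTR, which is why those sites are shown. The longest annotated 3′ UTR of each gene was searched on the transcribed strand for TATTTAT, the DNA letters of the heptamer, counting overlapping copies, and for the nonamer TTATTTATT that contains it. Zfp36, Zfp36l1 and Zfp36l2 held 3 heptamers each, with 1 nonamer each. The sites below read 5′ to 3′ on the transcribed strand from the GENCODE M21 transcripts on GRCm38, with the heptamers in capitals.
Zfp36 at chr7:28376970-28376990, reverse strand: ggcccttTATTTATgacgact
Zfp36 at chr7:28376955-28376975, reverse strand: acgacttTATTTATtgtatta
Zfp36 at chr7:28376930-28376950, reverse strand: tttatagTATTTATatatatt
Zfp36l1 at chr12:80108171-80108191, reverse strand: gttggatTATTTATtttagaa
Zfp36l2 at chr17:84184918-84184938, reverse strand: tttaactTATTTATtatcttg
Elavl1 at chr8:4285782-4285810, reverse strand: aaaatTATTTATTTATTTATTTATtttta
Elavl1 at chr8:4285746-4285774, reverse strand: gtttgttTATTTATTTATTTATtacttgt
Tob2 at chr15:81849864-81849884, reverse strand: acctgctTATTTATgtacgag

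The 3 Zfp36 heptamers lie close together in a 3′ UTR of 774 bases. Of 1371 tested genes with a 3′ UTR of like length, 19.5% had any heptamer and 1.09% had as many. Elavl1 had 8 overlapping heptamers in 4218 bases, of which 7 lie in the 2 repeats printed above, and 0.194% of 1031 genes of like length had as many. Tob2 had 1 heptamer in 2457 bases, and 44.5% of 1760 genes of like length had at least that number. No heptamer was found in the annotated 3′ UTRs of Hnrnpd, Khsrp, Tob1 and Btg1, although each of them held the shorter ATTTA, in 10, 1, 3 and 11 copies. TGCT, a core that muscleblind proteins bind, was densest among the members in the Zfp36 3′ UTR, at 9.04 per kb (median of genes of like length 6.02). It was sparsest in that of Tob1, at 2.61 per kb (median 6). These densities rest on 7 copies in Zfp36 and 2 in Tob1. The other members lay between them, with Zfp36l2 at 2.74 per kb (median 6.07) and Hnrnpd at 7.92 (median 6.14). These matches describe letters in the annotation and are not measured binding sites.

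Genes that overlap a member on the other strand could share reads with it, since whether counting used strand is not given. The largest such neighbours were Gm44710 at Zfp36 (244 counts over all libraries, against 6625 for Zfp36) and Ccl25 at Elavl1 (278, against 7243), and the Zfp36l1 and Btg1 pseudogenes had 0 counts. Library totals ran from 17059736 to 17971617 counts, and mitochondrial transcripts took 35.1% to 43.3% of them. The members had 22 to 850 counts per library, with Zfp36l2 the lowest at 22 to 200. Levels below are CPM, counts scaled to a common library size with TMM factors, so they are shares of the RNA and not amounts per cell. The gene-level count of Mbnl1 itself was 93.9 to 106 CPM in the 9 KO-labelled libraries and 85.6 to 92.9 CPM in the 8 WT-labelled ones. With TMM factors it thus separated the labels without overlap but was higher in KO. Before scaling, its baseline counts overlapped, at 1627 to 1820 in KO and 1640 to 1823 in WT. The lower level that a loss-of-function label could bring was thus not seen in total counts. Such counts do not show whether only part of the gene is removed. KO and WT below therefore mean the libraries labelled so, and every direction between them rests on those labels. Esr1, the estrogen receptor alpha gene, had 36443 to 46057 counts in each KO-labelled library and 0 to 57 in each WT-labelled one, with the 57 in WT 8 h replicate 3. Without that library all 4 member calls between KO and WT at 8 h kept their direction and stayed under an adjusted p of 0.05. The labels do not say whether libraries of a group came from separate animals, so the p-values measure the spread between these libraries, which may be technical.

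Cardiomyocyte markers dominated in every group. The summed level of 8 of them was 60976 to 63870 CPM in KO and 50988 to 53921 CPM in WT at baseline. Markers of other cell types were present and moved with both genotype and time. The 12 macrophage markers summed to 33.6 to 38.6 CPM in KO and 80.8 to 94.6 CPM in WT at baseline, and to 22.2 to 27.1 CPM in KO and 16.4 to 19 CPM in WT at 8 h. At baseline 9 of the 11 tested macrophage markers and 8 of 9 fibroblast markers were called lower in KO. The 10 endothelial markers summed to 157 to 180 CPM in KO and 203 to 211 CPM in WT at baseline, and to 44.1 to 48.8 CPM in KO and 44.3 to 46.8 CPM in WT at 8 h. The 10 fibroblast markers summed to 16 to 17.9 CPM in KO and 33.4 to 34.5 CPM in WT at baseline. No macrophage, endothelial or fibroblast marker was at 0 in all libraries of a group, apart from 1 fibroblast marker in KO at 8 h. The 8 mural cell markers summed to 439 to 467 CPM in the KO libraries and 541 to 566 CPM in the WT libraries at baseline. Of the 7 tested, 1 was called lower and 0 higher in KO there (median -0.04, all genes -0.02). At 8 h they summed to 555 to 605 CPM in KO and 537 to 638 CPM in WT. Against baseline, 4 of the 7 were then called lower and 2 higher in KO, and 5 lower and 2 higher in WT. The 5 erythroid markers summed to 4.38 to 6 CPM in the KO libraries and 6.89 to 9.36 CPM in the WT libraries at baseline, with 1 of them at 0 throughout WT at 8 h. The ZFP36 and BTG/TOB genes are expressed in these types as well as in cardiomyocytes, and the part of the markers in the results below was not tested. In these bulk libraries fewer cells of a type and less RNA per cell cannot be told apart.

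**Figure D1:**
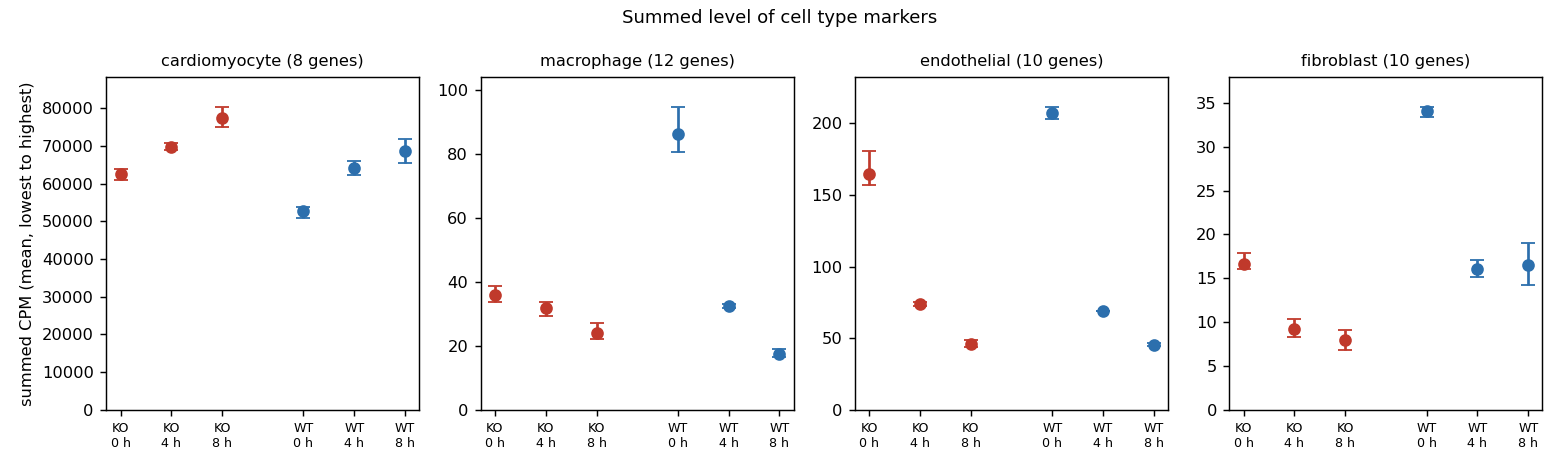
Summed CPM of marker genes for 4 cell types in each group, with the mean as a point and the lowest and highest library as bars, KO on the left and WT on the right. Cardiomyocyte sums run from 50988 CPM upward, while macrophage markers reach 94.6 CPM in WT at baseline against at most 38.6 CPM in KO.

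At baseline KO cells had less of the 3 ZFP36 family transcripts and of Tob1 and Tob2 than WT cells. Zfp36l2 and Zfp36 stood furthest below WT, at 50% and 56.7% of the WT level by the model. Elavl1, Hnrnpd, Khsrp and Btg1 did not pass the test. So 5 of the 9 were called lower, against 17.9% of all genes tested, and none was called higher, against 18.8% of all genes. With edgeR 1 member (Hnrnpd) was higher at an unadjusted p under 0.05, and the share of all genes at that p was not taken. DESeq2 called none of the 9 higher, where it called 2339 of the 13230 genes higher. The median log2 fold change of the 9 was -0.21, and over all tested genes it was -0.02.

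Zfp36 (ENSMUSG00000044786, chr7:28376784-28380253, reverse strand) had 21.7, 23 and 24.9 CPM in KO at baseline, against 40.7, 42.1 and 39.8 CPM in WT. The groups were far apart relative to their spread. The log2 fold change was -0.82 ± 0.07 (SE), with an adjusted p of 4.5e-16 by edgeR's quasi-likelihood test with Benjamini-Hochberg adjustment over all tested genes, the test used for every adjusted p below. At 4 h KO had 15.8, 15.1 and 14.6 CPM, against 21.7 and 20.8 CPM in WT. The gap was smaller but all KO libraries still lay below both WT libraries, with a log2 fold change of -0.49 ± 0.08 (adjusted p = 4.4e-06). At 8 h KO had 15.3, 14.2 and 14.6 CPM, against 14.8, 15.7 and 12.9 CPM in WT, and the groups overlapped. The log2 fold change at 8 h was 0.02 ± 0.08 (adjusted p = 0.88).

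Zfp36 was also the only member whose change over time differed between the genotypes past the threshold. By 8 h its level was 63.5% of the baseline in KO (log2 fold change -0.65 ± 0.08, adjusted p = 1.2e-10) and 35.5% of the baseline in WT (-1.49 ± 0.07, adjusted p = 3.4e-27). The KO change minus the WT change was 0.84 ± 0.11 on the log2 scale (adjusted p = 5.3e-08), higher than that of 96.6% of tested genes. It was called under all 25 alternative settings, with values of 0.76 to 1.12, and was 0.76 without WT 8 h replicate 3 (adjusted p = 3.2e-06). At 8 h 1 of the 9 members was called in this comparison, where 5.2% of all genes were. In KO the level at 4 h (15.2 ± 0.61 CPM, SD, n = 3) was close to that at 8 h (14.7 ± 0.53 CPM), while in WT it was 21.3 ± 0.64 CPM at 4 h (n = 2) and 14.5 ± 1.42 CPM at 8 h (n = 3). At 4 h the difference of changes was 0.33 ± 0.11 and missed the threshold (unadjusted p = 0.0035, adjusted p = 0.27). No member was called there by edgeR, where 0.348% of all genes were, or by DESeq2, where 24 genes were. Zfp36 was the 1 member with an unadjusted p under 0.05 at 4 h. With library size alone its adjusted p at 4 h was 0.023. Among the macrophage markers 8 of 11 also had a called positive difference at 8 h, and 1 of 10 endothelial markers did.

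**Figure D2:**
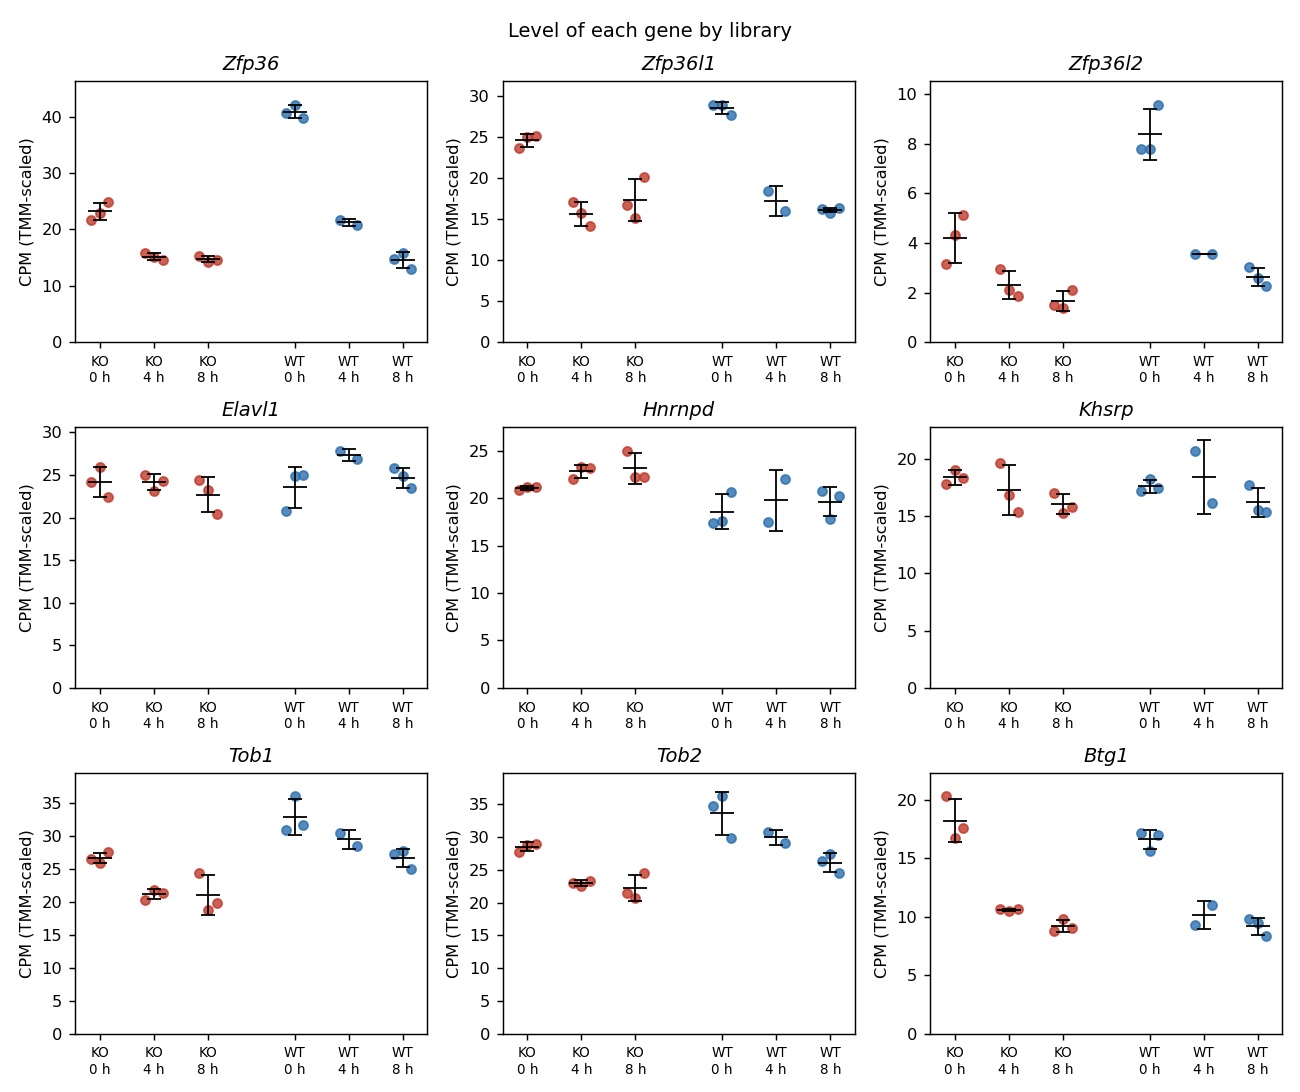
CPM of each of the 9 genes in every library (points), with the group mean and SD (black), KO at 0, 4 and 8 h on the left and WT at 0, 4 and 8 h on the right. Zfp36 ends near 15 CPM in both genotypes from a baseline of 23.2 CPM in KO and 40.9 CPM in WT.

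Zfp36l1 (ENSMUSG00000021127, chr12:80107754-80113013, reverse strand), which acts beside Zfp36 on many of the same elements, had 23.7, 25.1 and 25.2 CPM in KO at baseline, against 29, 29 and 27.7 CPM in WT. All KO libraries lay below all WT libraries, although the gap was small. The log2 fold change was -0.21 ± 0.07 (adjusted p = 0.018), and the call was lost by DESeq2 (adjusted p = 0.09), without KO 0 h replicate 1 (0.083) and without WT 0 h replicate 2 (0.1). After 4 h it had 17.2, 15.7 and 14.2 CPM in KO, against 18.5 and 16 CPM in WT. At 8 h it had 16.8, 15.1 and 20.2 CPM in KO, against 16.2, 15.8 and 16.3 CPM in WT. The genotypes overlapped at both later times and neither difference passed the test. Its decline to 8 h was called in KO (-0.50 ± 0.08, adjusted p = 4.0e-07) and in WT (-0.82 ± 0.08, adjusted p = 4.6e-14), and the difference of these changes, 0.32 ± 0.11, had an adjusted p of 0.081. That difference was called in 4 of the 25 alternatives, among them library size alone (0.43, adjusted p = 0.02) and leaving out KO 8 h replicate 2 (0.41, adjusted p = 0.027). Without KO 8 h replicate 3 it was 0.20 (adjusted p = 0.35).

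Zfp36l2 (ENSMUSG00000045817, chr17:84183931-84187947, reverse strand), the third paralog, had 3.16, 4.32 and 5.13 CPM in KO at baseline, against 7.8, 7.78 and 9.58 CPM in WT. It was the least abundant member by count, and KO lay below WT without overlap at each time. The log2 fold change was -1.0 ± 0.14 at baseline (adjusted p = 3.0e-08). At the 4 h time it had 2.95, 2.1 and 1.85 CPM in KO, against 3.56 and 3.54 CPM in WT, a log2 fold change of -0.62 ± 0.21 (adjusted p = 0.018). The 8 h libraries had 1.51, 1.37 and 2.1 CPM in KO, against 3.02, 2.57 and 2.28 CPM in WT, a log2 fold change of -0.66 ± 0.22 (adjusted p = 0.02). The baseline call was kept in all 25 alternatives. The 4 h call was lost by DESeq2 (adjusted p = 0.057) and without KO 4 h replicate 2 (0.066), KO 4 h replicate 3 (0.1), WT 4 h replicate 1 (0.1) or WT 4 h replicate 2 (0.097). The 8 h call was lost without KO 8 h replicate 1 (0.079), KO 8 h replicate 2 (0.1) or WT 8 h replicate 1 (0.1). Between baseline and 8 h it changed by -1.33 ± 0.20 in KO and -1.68 ± 0.16 in WT, the largest declines among the members in each genotype, and the difference of these, 0.35 ± 0.27, did not pass the test (adjusted p = 0.53).

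Among the remaining AU-rich element binders no difference between genotypes was called at baseline or 4 h with TMM factors and all libraries. Elavl1 (ENSMUSG00000040028, chr8:4285382-4325413, reverse strand) had 24.2, 26 and 22.4 CPM in KO at baseline, against 20.8, 24.8 and 25 CPM in WT. The groups overlapped at baseline and at 8 h. The 4 h libraries had 25, 23.1 and 24.3 CPM in KO, against 27.9 and 26.8 CPM in WT, so that KO lay below WT, but the log2 fold change of -0.18 ± 0.08 had an adjusted p of 0.087. At 8 h it had 24.4, 23.3 and 20.4 CPM in KO, against 25.8, 24.8 and 23.4 CPM in WT. Its messenger, with 8 heptamers in the annotated 3′ UTR, stayed near the baseline share during the block. In KO the change to 8 h was -0.09 ± 0.08 and in WT 0.06 ± 0.07, and neither passed the test. With library size alone Elavl1 was called lower in KO at 8 h (-0.20, adjusted p = 0.043). Under that scaling it was also called lower in KO against WT at 4 h (-0.23, adjusted p = 0.038) and 8 h (-0.22, adjusted p = 0.031). Scaling by ribosomal protein counts called 57.8% of all genes lower in KO against WT at 0 h and 57.4% at 4 h. Elavl1 was among them, at -0.29 (adjusted p = 0.0039) and -0.55 (adjusted p = 3.0e-06). In WT at 4 h it was called higher than at baseline (0.21 ± 0.08, adjusted p = 0.04), the 1 member called higher in that comparison, where 15.9% of all genes were. That call was lost in 10 of 25 alternatives, including DESeq2 (adjusted p = 0.083) and leaving out KO 0 h replicate 1 (0.085), WT 0 h replicate 1 (0.26), WT 4 h replicate 1 (0.3) or WT 4 h replicate 2 (0.15).

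Hnrnpd (ENSMUSG00000000568, chr5:99955935-99978938, reverse strand), whose AUF1 isoforms promote decay of many AU-rich messengers, was the 1 member called higher in KO. At baseline it had 20.8, 21.2 and 21.2 CPM in KO, against 17.4, 17.6 and 20.7 CPM in WT. At 4 h it had 22, 23.3 and 23.2 CPM in KO, against 17.5 and 22.1 CPM in WT. After 8 h it had 25, 22.3 and 22.2 CPM in KO, against 20.7, 17.9 and 20.3 CPM in WT. KO lay above WT at 0 and 8 h and overlapped it at 4 h. The log2 fold changes were 0.18 ± 0.08 (adjusted p = 0.065), 0.20 ± 0.09 (0.069) and 0.24 ± 0.08 (0.018) at 0, 4 and 8 h. It was called higher in 4 of 25 alternatives at 0 h, among them leaving out WT 0 h replicate 3 (0.29, adjusted p = 0.0052), WT 4 h replicate 1 (0.043) or WT 4 h replicate 2 (0.044), and in 7 of 25 at 4 h. At 4 h the value ran from 0.076 to 0.42 as single libraries were left out, with calls without WT 4 h replicate 2 (0.42, adjusted p = 0.0028), KO 0 h replicate 1 (0.035), WT 0 h replicate 2 (0.029) or WT 0 h replicate 3 (0.024). The 8 h call was lost with library size alone (adjusted p = 0.22), with ribosomal protein scaling (0.12), and without KO 8 h replicate 1 (0.14) or WT 8 h replicate 2 (0.14). Scaling by ribosomal protein counts turned its baseline and 4 h differences to -0.15 and -0.16.

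Khsrp (ENSMUSG00000007670, chr17:57021051-57031522, reverse strand), a KH-domain protein that recruits decay enzymes to AU-rich elements, did not differ by a call between genotypes at any time with TMM factors. It had 17.8, 19.1 and 18.3 CPM in KO at baseline, against 17.2, 18.3 and 17.4 CPM in WT. At 4 h the gene had 19.7, 16.8 and 15.4 CPM in KO, against 20.7 and 16.1 CPM in WT. At 8 h it had 17, 15.3 and 15.8 CPM in KO, against 17.7, 15.6 and 15.4 CPM in WT. The groups overlapped at all times. With ribosomal protein scaling 57.8% of all genes were called lower in KO at 0 h and 57.4% at 4 h. Khsrp was among them, at -0.27 (adjusted p = 0.013) and -0.46 (adjusted p = 0.00025). Its change to 8 h in KO was -0.20 ± 0.09, just short of the threshold (adjusted p = 0.058), and in WT it was -0.12 ± 0.08 (adjusted p = 0.23). The KO change was called lower in 9 of 25 alternatives, including library size alone (-0.30, adjusted p = 0.0047), compared groups only (-0.21, 0.023) and the CPM filter (-0.21, 0.045). It was also called without KO 4 h replicate 1 (adjusted p = 0.049), KO 8 h replicate 1 (0.042), WT 0 h replicate 2 (0.04) or WT 0 h replicate 3 (0.04). The WT change was called with library size alone (-0.33, adjusted p = 0.001).

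Tob1 (ENSMUSG00000037573, chr11:94211454-94215495, forward strand), an antiproliferative adaptor between poly(A)-binding protein and the deadenylase, had 26.5, 26 and 27.6 CPM in KO at baseline, against 30.9, 36.1 and 31.7 CPM in WT. At 4 h it had 20.3, 21.9 and 21.4 CPM in KO, against 30.6 and 28.5 CPM in WT. At 8 h the gene had 24.5, 18.8 and 19.9 CPM in KO, against 27.3, 27.7 and 25.1 CPM in WT. Every KO library lay below every WT library of its time. The log2 fold changes were -0.30 ± 0.07 (adjusted p = 0.00046), -0.48 ± 0.08 (4.2e-06) and -0.34 ± 0.08 (0.00034) at 0, 4 and 8 h. Each of these 3 calls was kept in all 25 alternatives, with -0.20 the value nearest to 0.

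Tob2 (ENSMUSG00000048546, chr15:81848272-81858796, reverse strand), the paralog of Tob1, had 27.8, 28.8 and 29 CPM in KO at baseline, against 34.8, 36.2 and 29.9 CPM in WT. At 4 h it had 23.1, 22.5 and 23.3 CPM in KO, against 30.8 and 29.2 CPM in WT. At 8 h it had 21.4, 20.8 and 24.5 CPM in KO, against 26.3, 27.3 and 24.5 CPM in WT. KO lay below WT at each time, by a narrow margin at 8 h, where the highest KO and the lowest WT library were both near 24.5 CPM. The log2 fold changes were -0.24 ± 0.07 (adjusted p = 0.0042), -0.38 ± 0.08 (8.4e-05) and -0.23 ± 0.07 (0.013). The baseline call was lost without WT 0 h replicate 2 (adjusted p = 0.12). The 8 h call was lost by DESeq2 (0.072) and without KO 8 h replicate 1 (0.067), KO 8 h replicate 2 (0.098) or WT 8 h replicate 2 (0.08).

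Btg1 (ENSMUSG00000036478, chr10:96617006-96622809, forward strand), an antiproliferative gene of the same family with high levels in resting cells, showed no called difference between genotypes with TMM factors. It had 20.3, 16.7 and 17.6 CPM in KO at baseline, against 17.2, 15.7 and 17 CPM in WT. After 4 h there were 10.6, 10.5 and 10.7 CPM in KO, against 9.31 and 11 CPM in WT. After 8 h there were 8.76, 9.76 and 9.02 CPM in KO, against 9.77, 9.44 and 8.38 CPM in WT. The genotypes overlapped at each time while both fell steeply during the block. With ribosomal protein scaling Btg1 was called lower in KO at 4 h (-0.31, adjusted p = 0.026), where 57.4% of all genes were. The change to 8 h was -0.99 ± 0.09 in KO (adjusted p = 4.0e-14) and -0.85 ± 0.09 in WT (adjusted p = 2.6e-12), and their difference, -0.14 ± 0.13, did not pass the test (adjusted p = 0.63).

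Over the 9 genes, Zfp36l2, Tob1 and Tob2 were called lower in KO at each of the 3 times. The share of all genes called lower at each of the 3 times was not taken. At 4 h 4 members were called lower (Zfp36, Zfp36l2, Tob1 and Tob2), against 17.4% of all genes, and none higher, against 14.6%. At an unadjusted p under 0.05 there were 5 lower and 1 higher at 4 h, and the share of all genes at that p was not taken. DESeq2 called 3 members lower and 0 higher at 4 h, where it called 1498 of the 13230 genes lower and 1837 higher. At 8 h 3 were called lower (Zfp36l2, Tob1 and Tob2), against 13.7% of all genes, and 1 higher (Hnrnpd), against 13.9%. Without KO 8 h replicate 1 the number called at 8 h was 1, and without KO 8 h replicate 2 or WT 8 h replicate 2 it was 2. Without WT 0 h replicate 2 the number called at baseline was 3. Over all genes, leaving out 1 library at a time gave 4167 to 4930 calls at baseline and 2983 to 3719 at 8 h. With ribosomal protein scaling 8 members were called at 4 h, all lower, where 57.4% of all genes were called lower under that scaling.

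**Figure D3:**
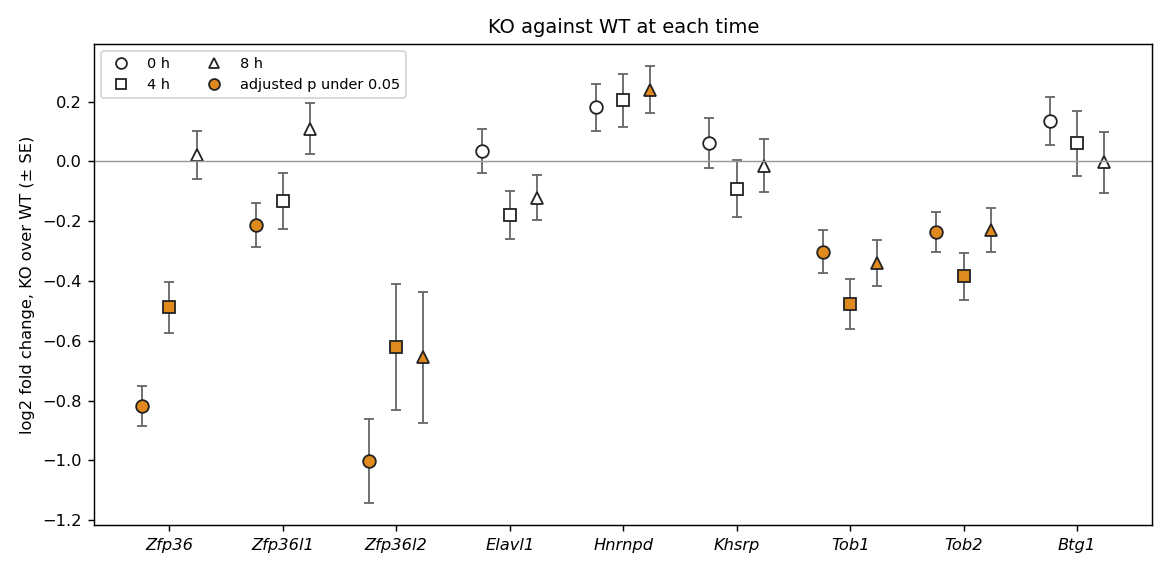
Log2 fold change of KO over WT (± SE) for each gene at 0 h (circles), 4 h (squares) and 8 h (triangles), filled where the adjusted p is under 0.05. Zfp36 moves from -0.82 at 0 h to 0.02 at 8 h, while Tob1 and Tob2 stay below 0 at the 3 times.

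During the transcription block the ZFP36 family and the BTG/TOB genes lost share in both genotypes, while Elavl1, Hnrnpd and Khsrp did not pass the test as lower in either. By 8 h 6 of the 9 (Zfp36, Zfp36l1, Zfp36l2, Tob1, Tob2 and Btg1) were called lower in KO, where 23.2% of all genes were, and the same 6 in WT, where 26.8% were. None was called higher by edgeR or DESeq2, or at an unadjusted p under 0.05, in either genotype at 8 h, against 21.4% of all genes in KO and 25% in WT. These shares are edgeR calls by adjusted p, and DESeq2 called 2788 genes higher in KO and 3214 in WT. The median log2 fold change of the 9 was -0.36 in KO, against -0.02 over all genes, and -0.37 in WT, against -0.03 over all genes. At 4 h the 6 were already called lower in KO (13.5% of all genes were called lower and 11.4% higher). In WT 4 were called lower at 4 h, the ZFP36 family and Btg1, where 12.6% of all genes were. Tob1 (-0.16 ± 0.08, adjusted p = 0.13) and Tob2 (-0.16 ± 0.08, adjusted p = 0.099) were not called in WT at 4 h, and were called in KO (-0.33 ± 0.08, adjusted p = 0.00054, and -0.31 ± 0.07, adjusted p = 0.0006). The differences between these 4 h changes did not pass the test, at -0.18 ± 0.11 for Tob1 (adjusted p = 0.67) and -0.15 ± 0.10 for Tob2 (adjusted p = 0.72). All these calls of a lower level at 4 or 8 h, in KO and WT, were kept in all 25 alternatives. KO and WT changes are each measured against their own baseline libraries, and the 4 and 8 h changes of a genotype share that baseline. Decay under the block cannot be told apart from changes with hours in culture or from loss of other cell types.

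**Figure D4:**
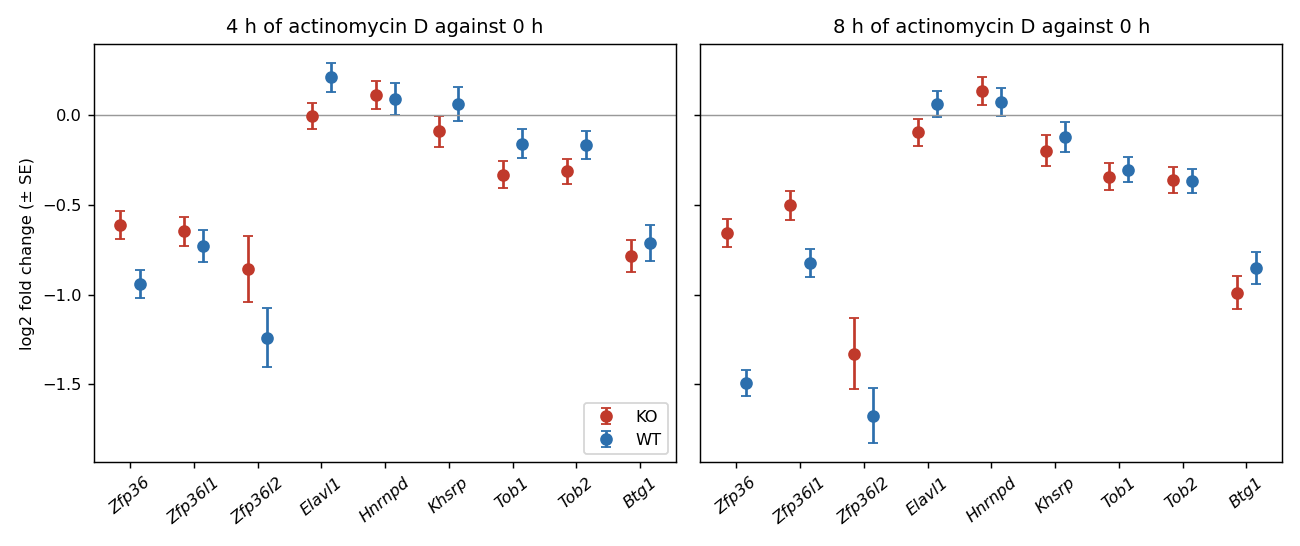
Log2 fold change (± SE) against 0 h after 4 h (left panel) and 8 h (right panel) of actinomycin D, with KO left of WT for each gene. Zfp36 stands at -0.65 in KO and -1.49 in WT at 8 h. Elavl1, Hnrnpd and Khsrp lie between -0.20 (Khsrp in KO at 8 h) and 0.21 (Elavl1 in WT at 4 h).

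The other scalings shift whole comparisons, and directions are therefore read relative to those shifts. Scaling by library size alone moved the median of all genes by -0.21 in KO against WT at baseline, by -0.21 in WT at 8 h, by -0.18 in WT at 4 h, by -0.11 in KO at 8 h and by 0.15 and 0.11 in the differences of changes at 4 and 8 h. Scaling by ribosomal protein counts moved it by -0.33 and -0.37 in KO against WT at 0 and 4 h, by -0.22 and -0.38 in KO at 4 and 8 h, by -0.19 and -0.67 in WT at 4 and 8 h, and by 0.28 in the difference of changes at 8 h. The split of all called genes into higher and lower moved with them. KO against WT gave 2486 higher and 2365 lower at 0 h, but 907 and 5564 with library size alone and 468 and 7645 with ribosomal protein scaling. It gave 1932 and 2296 at 4 h, but 1432 and 2695, and 326 and 7596, under the same scalings. It gave 1837 and 1810 at 8 h, but 949 and 3046, and 1048 and 1932, and DESeq2 gave 1760 and 1140. Under library size alone and ribosomal protein scaling lower calls thus outnumbered higher ones between the genotypes at each time. In KO the block gave 1506 and 1787 at 4 h (870 and 1814, and 18 and 4649) and 2830 and 3068 at 8 h (1495 and 3989, and 28 and 8116). In WT it gave 2106 and 1671 at 4 h (118 and 3186, and 46 and 2938) and 3314 and 3546 at 8 h (1275 and 5898, and 50 and 11283). The difference of changes gave 32 and 14 at 4 h (98 and 2 with library size alone) and 248 and 440 at 8 h (564 and 132, and 3065 and 44), so that higher calls outnumbered lower ones under these scalings. With ribosomal protein scaling Elavl1 (-0.48 in KO and -0.60 in WT), Hnrnpd (-0.25 in KO and -0.59 in WT) and Khsrp (-0.58 in KO and -0.79 in WT) were called lower at 8 h in both genotypes, so that all 9 members were. Of all genes tested, 61.3% in KO and 85.3% in WT were called lower at 8 h under that scaling. 

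The place of the members among all genes is set beside their heptamers. Over 11993 tested genes with an annotated 3′ UTR, the median log2 fold change in KO at 8 h was 0.00 for 8291 genes with 0 heptamers and -0.13 for 499 genes with 3 or more. In WT the same medians were 0.01 and -0.19. The share called lower was 22.4% with 0 and 32.3% with 3 or more in KO, and 25.3% with 0 and 41.7% with 3 or more in WT. The median 3′ UTR length was 892 bases in genes with 0 heptamers and 3341 bases in those with 3 or more, so that heptamers and length were not separated. Zfp36, Zfp36l1 and Zfp36l2 fell by more than the median of the genes with 3 or more heptamers in both genotypes, and Elavl1, with 8, did not. Btg1 fell by 0.99 in KO and by 0.85 in WT, on the log2 scale, with 0 heptamers.

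**Figure D5:**
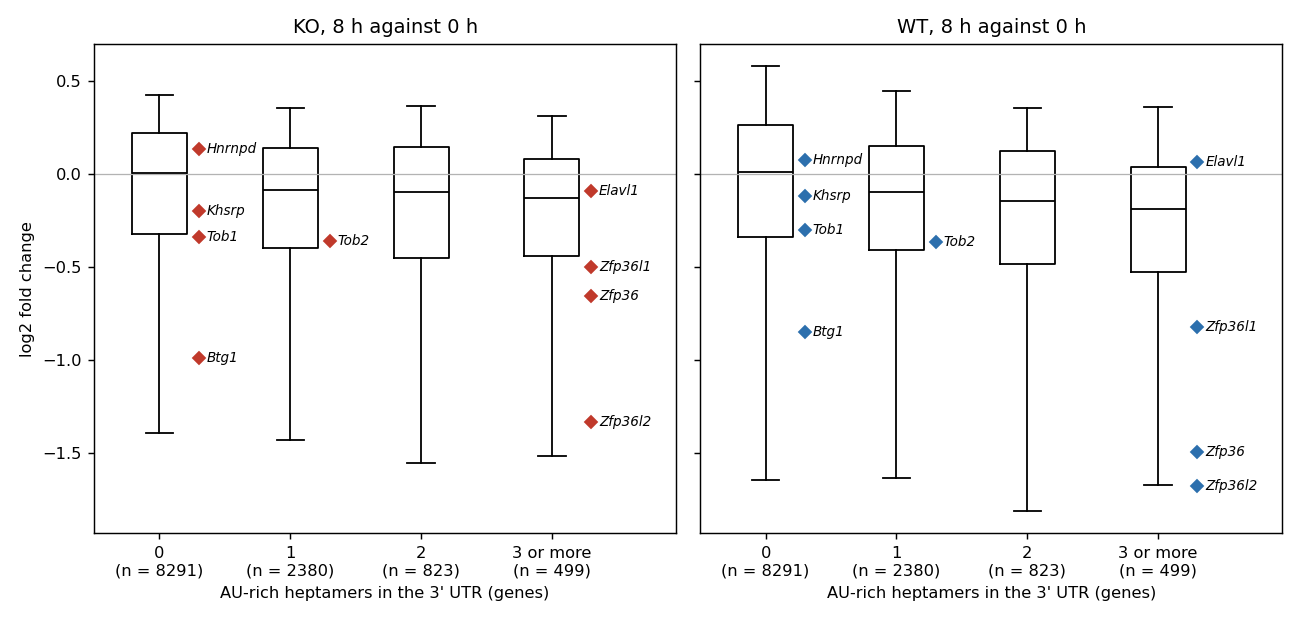
Log2 fold change at 8 h against 0 h by the number of AU-rich heptamers in the 3′ UTR, KO on the left and WT on the right, with boxes for the quartiles and median of all genes, whiskers at the 5th and 95th percentiles and diamonds for the members. The medians run from 0.00 to -0.13 in KO and from 0.01 to -0.19 in WT, with Zfp36 and Zfp36l2 well below the box and Elavl1 inside or above it.

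Per kilobase of annotated exon, which allows levels to be compared between genes, Tob1 was highest at baseline with 11.7 ± 0.36 CPM per kb in KO and 14.4 ± 1.21 in WT (SD, n = 3 each). In KO it was followed by Zfp36l1 (8.24 ± 0.28) and Zfp36 (6.68 ± 0.46), and in WT by Zfp36 (11.8 ± 0.34) and Zfp36l1 (9.55 ± 0.24). Tob2 came next, with 4.28 ± 0.1 in KO and 5.05 ± 0.5 in WT, then Khsrp, with 4.26 ± 0.15 in KO and 4.08 ± 0.13 in WT, and Btg1, with 3.45 ± 0.35 in KO and 3.15 ± 0.16 in WT. Tob2 and Khsrp did not differ beyond their spread in KO. The lowest were Hnrnpd (2.87 ± 0.03 in KO and 2.52 ± 0.25 in WT), Elavl1 (2.33 ± 0.17 in KO and 2.27 ± 0.23 in WT) and Zfp36l2 (1.19 ± 0.28 in KO and 2.38 ± 0.29 in WT). These last 3 did not differ beyond their spread in WT. The order depends on the length used, since an unspliced transcript makes the whole Zfp36 gene of 3470 bases count as exon. With the transcript that has the longest 3′ UTR in place of all exons, a length chosen after seeing the data, Zfp36 had 8.31 ± 0.57 CPM per kb in KO and 14.6 ± 0.42 in WT. It was then level with Zfp36l1 in KO (8.24 ± 0.28) and with Tob1 in WT (14.4 ± 1.21), within the spread. Elavl1 then had 4.21 ± 0.31 in KO and 4.1 ± 0.42 in WT, above Hnrnpd, and Zfp36l2 was the lowest in both.

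Over the 17 libraries the log2 levels of Zfp36 and Zfp36l2 correlated at r = 0.94, those of Tob1 and Tob2 at 0.90, and those of Hnrnpd and Tob2 at -0.79. The libraries share the same 6 groups, so these values mostly repeat the group differences and carry no p. The genes most like Zfp36, of 6706 compared, were Sparc (r = 0.98), Ltbp4 (0.96) and Fosb (0.96). The first encodes a matrix protein and Fosb an AP-1 subunit. Bhlhe40 (0.95), Cish (0.93) and Ier3 (0.93) were most like Zfp36l1, and Cav1 (0.96), Ripor1 (0.95) and Ets2 (0.95) were most like Zfp36l2. Cish is a feedback inhibitor of cytokine signalling and Cav1 the main protein of caveolae. For Btg1 they were Nfkbia (0.97), Arrdc3 (0.97) and Pim3 (0.96). For Tob1 they were Fam53b (0.95), Tubb6 (0.94) and Atf3 (0.94), and for Tob2 Asap3 (0.96), Atf3 (0.94) and Caskin2 (0.93). Likeness was weaker for Hnrnpd (Taco1 0.90, Dnajc7 0.89, Cdc42 0.87), Khsrp (Zkscan17 0.77, Zfp219 0.76, Synpo2l 0.75) and Elavl1 (Clns1a 0.71, Specc1l 0.68, Wars 0.68).

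The other deadenylation genes included calls in both directions. Of 23 tested of 24 listed (CCR4-NOT and PAN2-PAN3 subunits, other deadenylases, BTG genes and poly(A)-binding proteins), 6 were called higher and 3 lower in KO at baseline, with a median of 0.10. Over all genes 18.8% were called higher and 17.9% lower there, with a median of -0.02. In KO at 8 h the shares of all genes were 21.4% higher and 23.2% lower, and in WT 25% and 26.8%, and the counts below are to be read beside them. Btg2, a further BTG family gene, was the lowest and averaged 35.9 CPM in KO and 65.7 CPM in WT at baseline (-0.87 ± 0.06, adjusted p = 2.2e-19). Noct, a circadian gene of the deadenylase fold, averaged 22.5 CPM in KO and 13.5 CPM in WT (0.74 ± 0.08, adjusted p = 8.2e-11). At 8 h of the block 6 were called higher and 3 lower in KO, and 5 higher and 9 lower in WT. Pabpc4, which coats poly(A) tails, was the highest of these in both (0.53 ± 0.04 in KO and 0.51 ± 0.04 in WT), and Btg2 was the lowest (-0.60 ± 0.07 in KO and -1.08 ± 0.06 in WT). With ribosomal protein scaling Pabpc4 in WT at 8 h was -0.15.

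Of 37 other mRNA-binding proteins that act on stability or translation, 30 were tested, and at baseline 5 were called higher and 5 lower in KO. Ybx1, a cold-shock domain protein that packages messengers, averaged 564 CPM in KO and 433 CPM in WT (0.38 ± 0.04, adjusted p = 8.6e-12). Cpeb1, which controls poly(A) length of its targets, averaged 9.34 CPM in KO and 13.1 CPM in WT (-0.49 ± 0.09, adjusted p = 2.3e-05). At 8 h of the block 11 were called higher and 4 lower in KO, and 8 higher and 6 lower in WT. Of 20 kinases, phosphatases, 14-3-3 proteins and other enzymes that modify or hold these binders, 5 were called higher and 2 lower in KO at baseline, led by the 14-3-3 gene Ywhae (0.37 ± 0.04, adjusted p = 1.4e-10). With library size alone 17 of the 30 binders and 11 of the 20 modifiers were called lower in KO at baseline, where 42.1% of all genes were under that scaling.

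Textbook AU-rich messengers were mostly called lower during the block. Of 40 listed, 37 were tested, and 29 were called lower and 2 higher in KO at 8 h (median -0.94), and 30 were called lower in WT (median -0.95). Among those with a mean log2 CPM of 3 or more, the called highest in KO was Egr1 (0.29 ± 0.05), a zinc finger immediate early gene, and the called lowest was Nfkbia (-2.41 ± 0.12), the NF-κB inhibitor, which averaged 3.43 CPM in KO at 8 h. In WT the lowest above that abundance floor was Sgk1, a stress-induced kinase, at -2.06 ± 0.10. Several messengers below the floor were called at still lower values, such as the cytokine gene Tnf, named after its values were seen, at -3.29 ± 0.20 in KO and -3.33 ± 0.20 in WT. At baseline 23 were called lower and 4 higher in KO (median -0.31), with Fos averaging 38.4 CPM in KO cells and 75.7 CPM in WT cells (-0.98 ± 0.06, adjusted p = 7.1e-23). Nfkbia was the highest of those called at baseline above the same floor, with 18.2 CPM in KO and 14.2 CPM in WT (0.36 ± 0.09, adjusted p = 0.00093).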

How the data were processed

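The authors deposited raw counts of reads per Ensembl gene, per the file headers, for 17 libraries, and a table of ratios that was not used here. Per the submitters' processing notes the tools were STAR, featureCounts, DESeq2 and limma and the builds GRCm38 and mm10, while roles, versions and strand use are not stated there. The analysis used edgeR 4.0.16 (R 4.3.3). The function filterByExpr left 13230 genes with 99.9% of the counts. TMM factors scaled the libraries, and a robust quasi-likelihood fit covered the 6 groups together (common biological coefficient of variation 5.28%). Benjamini-Hochberg adjustment ran over all tested genes in each comparison, with calls at 0.05, and a standard error is the log2 fold change over the square root of F. The code was tested on simulated data. From the other lists the text names the called genes with the highest and lowest log2 fold change at a mean log2 CPM of 3 or more. Symbols and 3′ UTRs came from GENCODE M21 (GRCm38), and genes of like length have a 3′ UTR of 0.8 to 1.2 times that of the member. Likeness is Pearson's r of log2 CPM (prior count 2). Libraries of one group differed by 1.28 to 3.7 times Poisson noise, so none was treated as a copy. Alternatives changed the scaling (RLE, library size alone, ribosomal protein counts), the filter (none, or CPM of 1 in 3 libraries), the tool (DESeq2 1.42.0) or the samples (compared groups only, a replicate block, each library left out). Libraries of WT at 0 and 8 h with the same replicate number deviated together in each of the 3 pairs (r of 0.124, 0.137 and 0.167, from the data and not the labels), while in no other comparison of 3 pairs did every pair exceed 0.1. A replicate block changed no member call in WT at 8 h. The members and lists were chosen with earlier results of these data known.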

Additional observations from a re-analysis of the deposited data

Results flagged for a closer look

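The change during the block differed between KO and WT for Zfp36 and for some genes of the other lists. The test was of the difference itself, in edgeR. From the other lists only the called highest and lowest at a mean log2 CPM of 3 or more are named. Of 37 tested textbook AU-rich messengers, 1 was called higher and 2 lower at 4 h, and 4 higher and 4 lower at 8 h. Over all genes 0.348% were called at 4 h and 5.2% at 8 h. For Zfp36 the KO change minus the WT change at 8 h was 0.84 (adjusted p = 5.3e-08). At 8 h it was 0.48 for Btg2, 0.35 for Cpeb2, a regulator of poly(A) tails, and -0.26 for Ybx1. Among textbook AU-rich messengers it was 0.64 for Egr1 and -0.64 for Nfkbia at 8 h, and 0.59 for Socs3, a feedback inhibitor of cytokine signalling, and -0.56 for Cdkn1a, a cell cycle inhibitor, at 4 h. The calls of Zfp36, Btg2, Egr1 and Socs3 were kept in all 25 alternatives. That of Nfkbia was lost in 9 of 25, namely by DESeq2 (adjusted p = 0.072), with library size alone (-0.54, 0.07), with ribosomal protein scaling (-0.36, 0.16), and without KO 0 h replicate 1 (0.068), KO 8 h replicate 2 (0.074), KO 8 h replicate 3 (0.066), WT 0 h replicate 2 (0.0502), WT 8 h replicate 2 (0.11) or WT 8 h replicate 3 (0.061). That of Cdkn1a was lost in 7 of 25, namely by DESeq2 (adjusted p = 0.073), with library size alone (-0.41, 0.12), and without KO 0 h replicate 2 (0.083), KO 4 h replicate 1 (0.081), WT 0 h replicate 3 (0.057), WT 4 h replicate 1 (0.18) or WT 4 h replicate 2 (0.051). Cpeb2 lost its call without KO 8 h replicate 1 (0.053) or replicate 2 (0.055), and Ybx1 under library size scaling (-0.16, 0.21) and ribosomal protein scaling (0.023, 0.87). In KO Zfp36, Btg2 and Egr1 averaged 23.2, 35.9 and 103 CPM at baseline, against 40.9, 65.7 and 184 CPM in WT. The difference of changes is the KO against WT difference at 8 h minus that at baseline. For Zfp36 these were 0.02 and -0.82, for Btg2 -0.39 and -0.87, and for Egr1 -0.21 and -0.84. Whether the unlike baselines bear on the rate of loss was not tested.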

How the results depend on the processing

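Over 25 alternatives and 9 comparisons, 1913 of 2025 values of members kept their direction and their side of the threshold (a member not called that crossed 0 by less than 1 SE was counted as keeping it), 30 lost a call, 42 gained one and 40 reversed. Of the other named genes 1371 of 1425 kept both, 49 lost a call and 5 reversed. Every reversed member was uncalled to begin with, and the causes of the changes below were not tested, other than that a scaling shifts all genes of a comparison together.

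With library size alone, KO against WT at 0 h was -0.17 for Elavl1, -0.028 for Hnrnpd, -0.15 for Khsrp and -0.071 for Btg1, and KO against WT at 8 h was -0.080 for Zfp36. In WT the 4 h change was -0.089 for Hnrnpd and -0.11 for Khsrp, and the 8 h change -0.15 for Elavl1 and -0.14 for Hnrnpd. The difference of changes at 4 h was 0.0035 for Khsrp, 0.0047 for Tob2 and 0.079 for Btg1, and at 8 h 0.068 for Tob1. It called 1 member and 100 genes at 4 h and 2 members at 8 h.

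With ribosomal protein scaling, KO against WT at 0 h was -0.29 for Elavl1, -0.15 for Hnrnpd, -0.27 for Khsrp and -0.2 for Btg1, and at 4 h -0.16 for Hnrnpd, -0.31 for Btg1 and -0.053 for Hnrnpab. Of these, Elavl1 and Khsrp at 0 h and Btg1 at 4 h passed the threshold as lower. In KO Hnrnpd was -0.11 at 4 h and -0.25 at 8 h, and Egr1 -0.094 at 8 h. In WT Hnrnpd was -0.096 and Khsrp -0.12 at 4 h, and at 8 h Elavl1 was -0.60, Hnrnpd -0.59, Pabpc4 -0.15 and Ywhae -0.12. The difference of changes at 8 h was 0.13 for Elavl1, 0.21 for Khsrp, 0.25 for Tob1, 0.14 for Btg1 and 0.023 for Ybx1. It called 8113 genes at 0 h, 8 members and 7922 genes at 4 h in KO against WT, 11333 genes in WT at 8 h, 28 genes at 4 h and 3 members and 3109 genes at 8 h in the difference of changes. With no filter that difference called 2 members at 8 h, and DESeq2 called 24 genes at 4 h and 438 at 8 h.

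Leaving out 1 library at a time, members called were 3 to 6, 3 to 5 and 1 to 4 in KO against WT at 0, 4 and 8 h, 1 to 2 in the difference of changes at 8 h, and 4 to 6 in WT at 4 h. Over all genes, those called in KO against WT were 4167 to 4930, 2963 to 4279 and 2983 to 3719 at 0, 4 and 8 h. Genes called in the difference of changes were 26 to 53 at 4 h and 422 to 830 at 8 h, and in WT at 4 h 2350 to 3840. The range crossed 0 for 18 of 81 member values, all uncalled. In KO against WT they were those of Elavl1 at 0 h (-0.046 to 0.11), of Zfp36l1 (-0.20 to 0.0064), Khsrp (-0.23 to 0.13) and Btg1 (-0.025 to 0.22) at 4 h, and of Zfp36 (-0.054 to 0.085), Zfp36l1 (-0.014 to 0.20), Khsrp (-0.060 to 0.052) and Btg1 (-0.066 to 0.042) at 8 h. In KO it was that of Elavl1 at 4 h (-0.055 to 0.051). In WT they were those of Hnrnpd (-0.11 to 0.23) and Khsrp (-0.15 to 0.21) at 4 h and of Elavl1 at 8 h (-0.017 to 0.12). In the difference of changes they were those of Hnrnpd (-0.11 to 0.23), Khsrp (-0.29 to 0.063) and Btg1 (-0.17 to 0.079) at 4 h and of Hnrnpd (-0.053 to 0.10), Tob1 (-0.16 to 0.036) and Tob2 (-0.079 to 0.060) at 8 h.

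Equal replicate numbers gave r of -0.16 to 0.22 over 40 pairs, the highest between KO 0 h and KO 4 h replicate 1. The labels do not say whether libraries with equal numbers share more than the number, and pairs with unequal numbers were not compared. With the replicate number as a block, Khsrp in KO at 8 h was called (-0.20, adjusted p = 0.047) and Elavl1 in WT at 4 h was not (0.19, adjusted p = 0.079), and no other member call changed. Counts of 22 to 62 per library limit what can be said of Zfp36l2 at 4 and 8 h.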
